A study of Mus musculus with 12 samples.

Results

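The genes Rn7s1, Rn7s2, Rn7sk and Rmrp were followed in RNA sequencing of mouse frontal cortex. These 4 genes encode short RNAs made by RNA polymerase III and were found among the 47069 rows of the count table by their gene identifiers. They were chosen by the log2 changes of Rn7s1 and Rn7s2 with clozapine in the labelled knockout, which earlier results of these libraries gave as negative, so that contrast, and the genotype comparisons of these 2 genes and their sum, are described here with no test. Of the 4, Rmrp had too few counts for the tests across all genes and the other 3 passed that filter.

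RNA polymerase III makes short untranslated RNAs that mostly carry no poly(A) tail. Rn7s1 and Rn7s2 encode 7SL RNA, the scaffold of the signal recognition particle (SRP), which halts ribosomes that are making secreted and membrane proteins and brings them to the endoplasmic reticulum. Rn7sk encodes 7SK RNA, which holds the kinase P-TEFb inactive and so restrains elongation by RNA polymerase II. Rmrp encodes the RNA of RNase MRP, an enzyme that cuts precursors of ribosomal RNA.

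The 12 libraries came from frontal cortex of male C57BL/6 mice, 3 in each of 4 groups, whose ages the labels do not give. Wild-type mice and mice of the genotype HDAC2(loxP,loxP), CamKIIa-Cre(+,-), called the labelled knockout here, had vehicle or clozapine. Clozapine, an antipsychotic drug, was given chronically at 10 mg/kg. The CamKIIa promoter drives Cre in forebrain excitatory neurons, so other cells keep Hdac2, and the labels name no control that carries loxP sites or Cre alone. Libraries are named by group and replicate number.

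Total counts were 23408372 to 28069638 per library, and 17286 genes were tested. Levels are given as CPM, counts scaled to library size by edgeR. Hdac2, the gene labelled as deleted, lay between 63.4 and 76.6 CPM in all libraries and was not lower in the labelled knockout, where the vehicle mean was 75.1 ± 1.67 CPM (SD, n = 3) against 69.7 ± 6.14 in wild type (SD, n = 3). These values count the whole gene, so they do not check the loss of single exons. Markers of excitatory neurons, of which Slc17a7 and Camk2a are defining, summed to between 5542 and 6763 CPM. In wild type the sum was 6055 to 6529 CPM with vehicle and 5627 to 5810 with clozapine. In the labelled knockout it was 5542 to 6437 CPM with vehicle and 6657 to 6763 with clozapine. Interneuron marker sums in the same order were 994 to 1027, 983 to 992, 916 to 1014 and 1029 to 1047 CPM. Both sums were thus lower with clozapine in wild type and higher in the labelled knockout, with no overlap. In the opposite directions, 7.34% of all genes separated in wild type and 8.97% in the labelled knockout. The shares in the directions of the sums are not given here, so these separations are description only. The median log2 changes of the 6 excitatory markers were -0.05 and 0.02. Wild-type vehicle 3 stood apart by choroid plexus markers, at 59.6 CPM summed against at most 9.83 elsewhere. Among 45 tested markers of 9 cell types, 0 passed with clozapine in either genotype. Of all genes, 0.816% passed with clozapine in wild type and 0.0231% in the labelled knockout, so 0 of 45 is no result. Between genotypes 1 marker rose and 1 fell under vehicle, where 9.16% of all genes passed, and 1 rose under clozapine, where 2% did. Slco1a4 rose under vehicle while the median log2 change of the 5 endothelial markers, of which it is one, was -0.15, and Camk2a rose under clozapine. The labels do not say which animals gave the replicates, so p-values here speak of the scatter among these libraries only, which may be technical. In tissue RNA, fewer cells that hold an RNA and less of it per cell cannot be told apart.

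Rn7s1 (ENSMUSG00000099021.1) and Rn7s2 (ENSMUSG00000099250.1) are single-exon genes on chromosome 12 of GRCm38, 201.587 kb apart and on opposite strands. Rn7s1 lies at chr12:69159295-69159594 on the plus strand and Rn7s2 at chr12:69361182-69361481 on the minus strand. Their transcripts are 300 bases long with 0 differences, so no read inside them can be assigned to either gene. Their longest run of A is 4 bases, in an RNA that has no poly(A) tail, and the libraries are described as mRNA libraries.

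The counts of both copies were nearly equal. They differed by at most 3 counts in any library and were equal in 2 libraries, and 19 of their 24 values are not whole numbers. Each gene also holds a pair of annotated miRNA genes on its own strand, Gm47287 and Gm47295 in Rn7s1 and Gm47305 and Gm47299 in Rn7s2, which cover 70 and 77 of its bases and were at 0 counts in every library. Whether the fractions come from reads that match several places or that overlap several genes is not given in the sources used here. The 11 other annotated genes that resemble 7SL (at least 80% identity over at least 100 bases) held few reads: Gm26461 had 11 counts and Rn7s6 had 10 over all libraries. With them added, the 7SL total was whole within 0.02 in 11 of 12 libraries, against 6 for Rn7s1 and Rn7s2 summed. The sum of Rn7s1 and Rn7s2 is therefore used below as the 7SL level.

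Rn7sk (ENSMUSG00000065037.1) is a single-exon gene of 331 bases at chr9:78175303-78175633 on the minus strand. Its first 60 bases, chr9:78175574-78175633, are shown because they hold a pair of GATC words, in capitals, at positions 13 and 42. In 7SK RNA the word at position 42, as GAUC, lies in the hairpin that binds HEXIM proteins. No such role is claimed here for the word at position 13.
Rn7sk: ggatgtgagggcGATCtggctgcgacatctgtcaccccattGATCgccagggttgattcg

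Rn7sk has more relatives with reads than 7SL has. Of 55 other annotated genes that resemble it by the same measure, 16 held reads, and Gm24447 and Gm26315 are identical to it over 241 and 235 bases. These copies took between 33.9% and 40.0% of the family's counts, with a median of 36.8%. Rn7sk alone was whole in 0 of 12 libraries and the family sum was whole within 0.02 in 12 of 12. A loss from the Rn7sk row could thus be a shift to a copy, and each result for Rn7sk was repeated on the family sum.

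Rmrp (ENSMUSG00000088088.1) lies at chr4:43492788-43493058 on the minus strand, as a ribozyme gene of 271 bases with 1 exon. Ccdc107, on the opposite strand, covers 159 of those bases, and since the use of strand in counting is not stated, reads there may belong to either gene.

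The 7SL level, the sum of both genes, lay between 1.16 and 5.70 CPM. In wild-type vehicle libraries 1, 3 and 4 it was 1.71, 1.65 and 1.98 CPM. In wild-type clozapine libraries 2, 3 and 5 it was 2.42, 4.53 and 3.30 CPM. In knockout vehicle libraries 2, 4 and 5 it was 4.16, 5.34 and 5.70 CPM. In knockout clozapine libraries 3, 4 and 5 it was 1.69, 1.42 and 1.16 CPM, the lowest group. The order of group means was thus knockout vehicle, wild-type clozapine, wild-type vehicle and knockout clozapine. The ranges of the upper pair overlapped, as did those of the lower pair, and no library of the upper pair fell to the level of the lower pair.

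**Figure D1:**
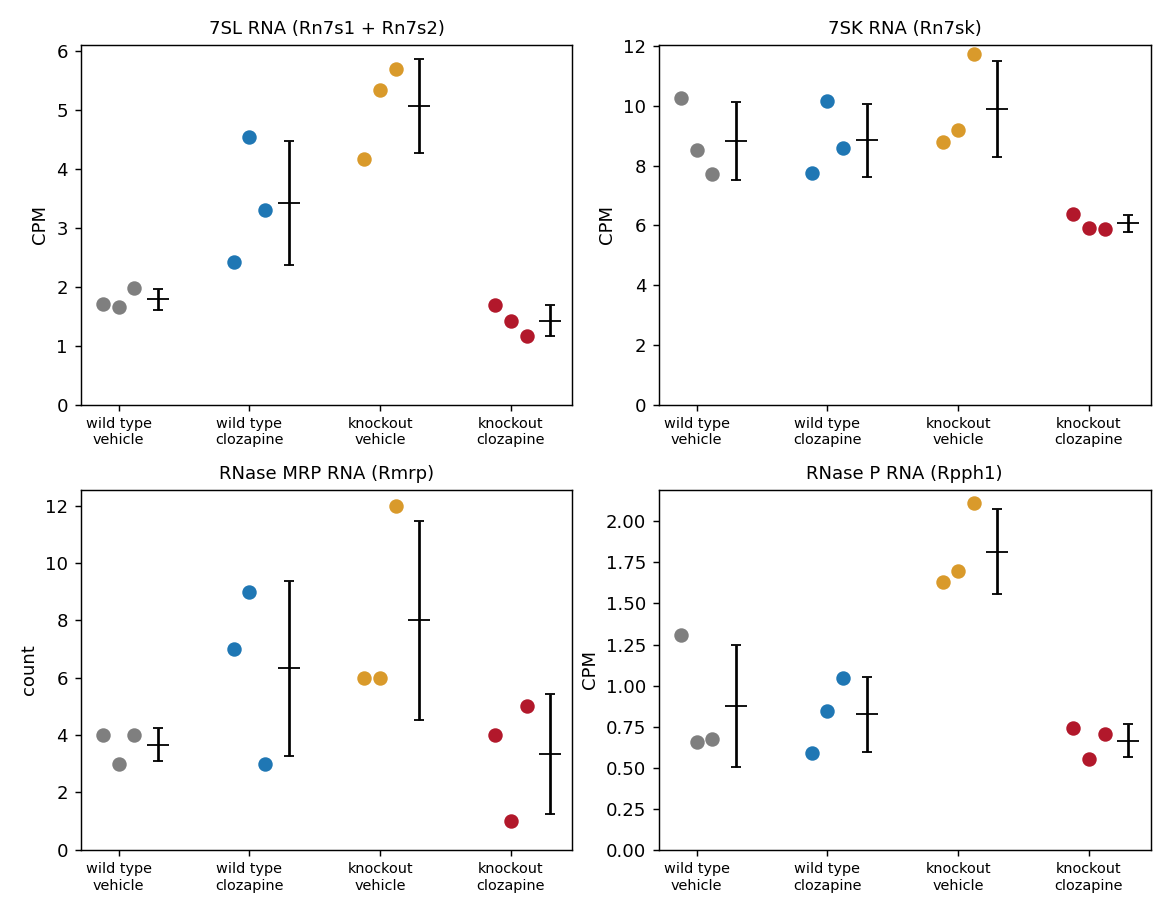
Level of each RNA by group, in CPM (in counts for Rmrp, whose values run from 1 to 12); points are libraries and the bars beside them mean and SD of 3. 7SL lies at 4.16 to 5.70 CPM in knockout vehicle and 1.16 to 1.69 CPM in knockout clozapine, and Rn7sk is low in knockout clozapine alone, at 5.90 to 6.40 CPM.

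The counts behind these levels are small, from 28 to 164.66 per library for both 7SL genes together. They were 39.34, 43 and 50 in wild-type vehicle, and 57.66, 107.33 and 79 in wild-type clozapine. They were 102, 128.67 and 164.66 in knockout vehicle, and 41, 33.66 and 28 in knockout clozapine. The widest spread within a group was in wild-type clozapine, where library 3 was the highest.

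With clozapine in wild type, 7SL was higher in each clozapine library than in every vehicle library. Its mean was 1.78 ± 0.176 CPM with vehicle (SD, n = 3) and 3.42 ± 1.06 with clozapine (SD, n = 3), and such a separation upward was found for 7.34% of all genes tested. The fitted log2 change was 0.94 (SE 0.217), with an edgeR adjusted p = 0.0543 that missed the threshold of 0.05. DESeq2 gave 0.94 with an adjusted p = 0.0172, and edgeR passed it without wild-type clozapine 2 (log2 change 1.13, adjusted p = 0.0204) or knockout vehicle 5 (0.94, adjusted p = 0.0452). By edgeR 0.816% of genes passed here, 0.191% of all genes upward. Taken singly, the log2 changes were 0.96 for Rn7s1 (SE 0.244, edgeR adjusted p = 0.0853) and 0.93 for Rn7s2 (SE 0.248, edgeR adjusted p = 0.105). Without wild-type vehicle 3, the library with choroid plexus markers, the change was 0.89 (edgeR adjusted p = 0.202). Summed markers of red blood cells were also higher in these clozapine libraries, at 212 to 437 CPM against 138 to 180 CPM with vehicle, and none of the 5 genes was at 0 or passed the test. Their highest value was in wild-type clozapine 3, which had the highest 7SL level of its group, and without that library the 7SL change was 0.69 (edgeR adjusted p = 0.159). The part of blood, or of the lower neuron marker sums of these clozapine libraries, in the result was not tested.

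With clozapine in the labelled knockout, the contrast by which the 7SL genes were picked, the direction was the other one. The mean 7SL level was 5.07 ± 0.804 CPM with vehicle (SD, n = 3) and 1.42 ± 0.265 with clozapine (SD, n = 3), 3.56 times lower in ratio of means, with no overlap. The fitted log2 changes were -1.83 for the sum (SE 0.215), -1.84 for Rn7s1 (SE 0.240) and -1.86 for Rn7s2 (SE 0.247). Of all genes 0.0231% passed the edgeR threshold in this contrast, and 8.97% separated downward. Red blood cell markers overlapped here: the vehicle libraries ran from 139 to 205 CPM and the clozapine ones from 122 to 303. The neuron marker sums were higher with clozapine here, and their part in the result was not tested.

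Between genotypes the 7SL genes share the knockout libraries that picked them, so the values are again a description. Under vehicle, 7SL was 2.84 times higher in the labelled knockout, with a log2 change of 1.51 (SE 0.207) and no overlap. Under clozapine it was 2.40 times lower in the labelled knockout, with a log2 change of -1.26 (SE 0.225) and no overlap. Beside them, 9.16% of all genes passed the edgeR threshold between genotypes under vehicle and 2% under clozapine. Genes with no overlap made up 13.2% upward under vehicle and 10.7% downward under clozapine. The comparisons share groups with each other, and their changes are not independent.

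**Figure D2:**
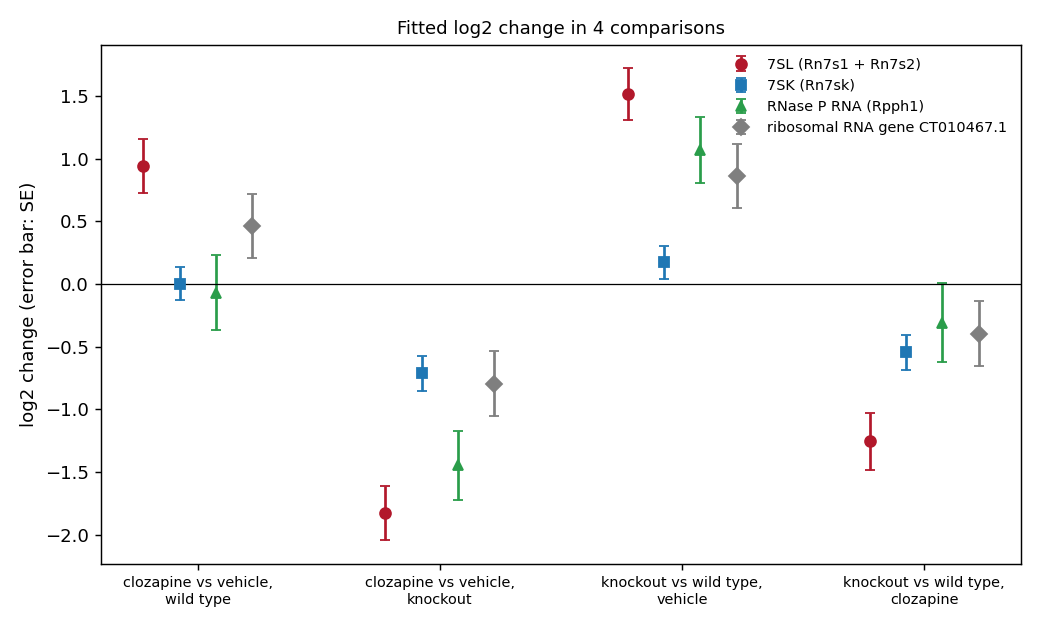
Fitted log2 change (points) and SE (bars) of 7SL, Rn7sk, Rpph1 and the ribosomal RNA gene CT010467.1 in the 4 comparisons. 7SL runs from -1.83 to 1.51, and Rn7sk from -0.71 to 0.17.

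7SK RNA had near-equal means in both wild-type groups. For wild-type vehicle 1, 3 and 4 the Rn7sk level was 10.3, 8.53 and 7.72 CPM, and for wild-type clozapine 2, 3 and 5 it was 7.77, 10.2 and 8.60. For knockout vehicle 2, 4 and 5 it was 8.78, 9.20 and 11.8 CPM. In knockout clozapine 3, 4 and 5 it was 6.40, 5.92 and 5.90 CPM, below every library of the other groups, which overlapped one another. Of all genes tested, 8.97% separated downward with clozapine in the labelled knockout, and 10.7% separated downward between genotypes under clozapine.

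With clozapine in wild type the log2 change of Rn7sk was 0.00 (SE 0.135, edgeR adjusted p = 0.998), with a 95% interval from -0.28 to 0.29. Means were 8.84 ± 1.30 CPM with vehicle (SD, n = 3) and 8.85 ± 1.22 with clozapine (SD, n = 3). The sign of so small a value turned in several alternatives, to -0.11 without wild-type clozapine 3 and to -0.39 per count of the ribosomal RNA gene CT010467.1, and no tested alternative passed the threshold. The family sum had a log2 change of 0.06 (edgeR adjusted p = 0.900).

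With clozapine in the labelled knockout the mean of Rn7sk was 6.07 ± 0.285 CPM (SD, n = 3) against 9.91 ± 1.61 with vehicle (SD, n = 3), a log2 change of -0.71 (SE 0.138), given without a test. The family sum gave -0.64, so the lower value held for Rn7sk and its copies together. The copies alone had means of 5.34 ± 0.841 CPM with vehicle (SD, n = 3) and 3.72 ± 0.314 with clozapine (SD, n = 3). The copies with most counts, Gm24447 and Gm26315, are identical to Rn7sk over 241 and 235 bases. Their rows can hold shares of the same reads and are no separate evidence.

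Between genotypes Rn7sk could be tested, though the knockout libraries are those of the contrast above. Under vehicle its log2 change was 0.17 (SE 0.133, edgeR adjusted p = 0.478), with a 95% interval from -0.11 to 0.45, and the groups overlapped. Under clozapine the value was -0.55 (SE 0.140, edgeR adjusted p = 0.0542), with a 95% interval from -0.84 to -0.25 and no overlap. That value just missed the threshold. DESeq2 (adjusted p = 0.0214), an edgeR fit of only the 2 groups (adjusted p = 0.0395) and the family sum (-0.55, edgeR adjusted p = 0.0325) passed it, as did edgeR fits that left out wild-type clozapine 2 (adjusted p = 0.0478), wild-type vehicle 1 (0.0444) or knockout vehicle 5 (0.0311). When wild-type clozapine 3 was left out it was -0.43 (edgeR adjusted p = 0.211). Downward calls made up 0.515% of all genes in that comparison.

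Rmrp was near the limit of detection. It had 4, 3 and 4 counts in wild-type vehicle, 7, 9 and 3 in wild-type clozapine, 6, 6 and 12 in knockout vehicle, and 4, 1 and 5 in knockout clozapine. The totals per group were 11, 19, 24 and 10 counts. The group totals ranked as those of 7SL did, knockout vehicle first and knockout clozapine last.

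Each Rmrp ratio was imprecise. With clozapine in wild type, the depth-scaled ratio was 1.79, with an exact 95% interval of 0.812 to 4.17 that covers counting error only. In the labelled knockout it was 0.448 (0.191 to 0.972), given without a test. Between genotypes it was 2.09 under vehicle (0.985 to 4.72) and 0.521 under clozapine (0.217 to 1.18). With the low-count filter off, edgeR gave adjusted p = 0.817 for clozapine in wild type, 0.378 for genotype under vehicle and 0.664 under clozapine. The counting intervals of these 3 tested ratios include 1, so a difference was not detectable at this depth.

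Per kilobase of transcript, Rn7sk was the most abundant member. Its group means were 26.7 CPM per kb in wild-type vehicle, 26.7 in wild-type clozapine, 29.9 in knockout vehicle and 18.3 in knockout clozapine. Rn7s1, which holds about the same reads as Rn7s2, was at 2.90, 5.68, 8.44 and 2.42 CPM per kb in the same order. Rmrp was at 0.551, 0.983, 1.12 and 0.509 CPM per kb. For RNAs without a poly(A) tail in mRNA libraries, these levels are those of the library.

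Rpph1 is the RNA of RNase P, which trims the 5′ ends of transfer RNAs. Of 9 other polymerase III RNAs listed, 7 were in the count table, and only Rpph1 had enough counts for a test. It lies at chr14:50807449-50807767 on the minus strand. Wild-type levels were 1.31, 0.65 and 0.67 CPM with vehicle and 0.59, 0.84 and 1.04 with clozapine. Levels in the labelled knockout were 1.63, 1.70 and 2.11 CPM with vehicle and 0.74, 0.55 and 0.70 with clozapine. The knockout vehicle libraries were the highest of all, as they were for the mean of 7SL, and did not overlap another group. Of all genes tested, 13.2% separated upward between genotypes under vehicle, and 8.97% separated downward with clozapine in the labelled knockout.

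Rpph1 rose in the labelled knockout under vehicle, with a fitted log2 difference of 1.07 (SE 0.264) and an edgeR adjusted p = 0.0196. Leaving out knockout vehicle 5 (0.94, edgeR adjusted p = 0.0815), wild-type vehicle 3 (0.89, adjusted p = 0.102) or wild-type vehicle 4 (0.92, adjusted p = 0.0671) ended that call. With clozapine its log2 change in the labelled knockout was -1.45 (SE 0.278, edgeR adjusted p = 0.0728), which passed once wild-type vehicle 1 was left out (adjusted p = 0.0292) or the low-count filter was off (adjusted p = 0.000979). In wild type the change was -0.07 (edgeR adjusted p = 0.959), and its sign turned when wild-type vehicle 1 was left out (0.31). Between genotypes under clozapine the change was -0.31 (edgeR adjusted p = 0.693).

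The other listed RNAs of the polymerase that were in the count table were almost unseen. Bc1 and Rnu6atac had no row there under those names, so their levels were not measured. Over all libraries Rny1, a Y RNA that binds Ro60, had 23 counts and Rny3 had 6. Vaultrc5, the RNA of vault particles, had 9 counts, and Rnu6, the U6 spliceosomal RNA, had 6.95. The 5S ribosomal RNA rows Rn5s and n-R5s1 were at 0.

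Small nuclear, Cajal body and nucleolar RNAs and telomerase RNA were checked as a contrast. Most of them also lack a poly(A) tail but are made by polymerase II. Of 28 listed genes none had enough counts for a test. They summed to 0.66 to 1.80 CPM per library, led by Scarna2 with 72 counts and Snora17 with 56. Rnu2-10 had 7.81 counts, Rnu12 had 5 and Terc had 3, so the small nuclear and telomerase RNAs listed by name were hardly measured. All annotated small nuclear RNAs as a class, not split by polymerase, summed to 7.98 to 12.5 CPM per library. The group medians of that class were 10.4 CPM in wild-type vehicle, 10.4 in wild-type clozapine, 9.71 in knockout vehicle and 9.17 in knockout clozapine. Annotated small nucleolar RNAs as a class summed to 23.4 to 34.4 CPM per library. Their group medians, in the order used above, were 26.6, 27.5, 27.7 and 24.0 CPM. The replication-dependent histone genes, whose mRNAs have no poly(A) tail, had 5 tested members and 0 passed in any comparison. All genes passed at 0.816% and 0.0231% with clozapine in wild type and labelled knockout, and at 9.16% and 2% between genotypes under vehicle and clozapine, so 0 of 5 is no result about these genes.

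The level of a ribosomal RNA gene was set beside that of 7SL. CT010467.1, chosen after its values were seen, is annotated as rRNA at chr17:39846353-39848827. Wild-type libraries held 968, 687 and 851 CPM of it with vehicle and 719, 1456 and 1276 with clozapine. Libraries of the labelled knockout held 1436, 1321 and 1793 CPM with vehicle and 962, 763 and 899 with clozapine. Ribosomal RNA is made by polymerase I and, like 7SL, has no long poly(A) tail, and its highest libraries were among the highest in 7SL. Its fitted log2 changes were 0.46 and -0.79 with clozapine in wild type and labelled knockout, and 0.86 and -0.40 between genotypes under vehicle and clozapine. None of the 4 passed the threshold (edgeR adjusted p = 0.554, 0.259, 0.0770 and 0.514 in that order). Its groups overlapped for clozapine in wild type and between genotypes under clozapine. There the 95% intervals of -0.12 to 1.05 and -0.98 to 0.19 include 0. The groups did not overlap with clozapine in the labelled knockout, where 8.97% of all genes tested separated downward. Nor did they between genotypes under vehicle, where 13.2% separated upward. The 4 values have the signs of those of 7SL.

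**Figure D3:**
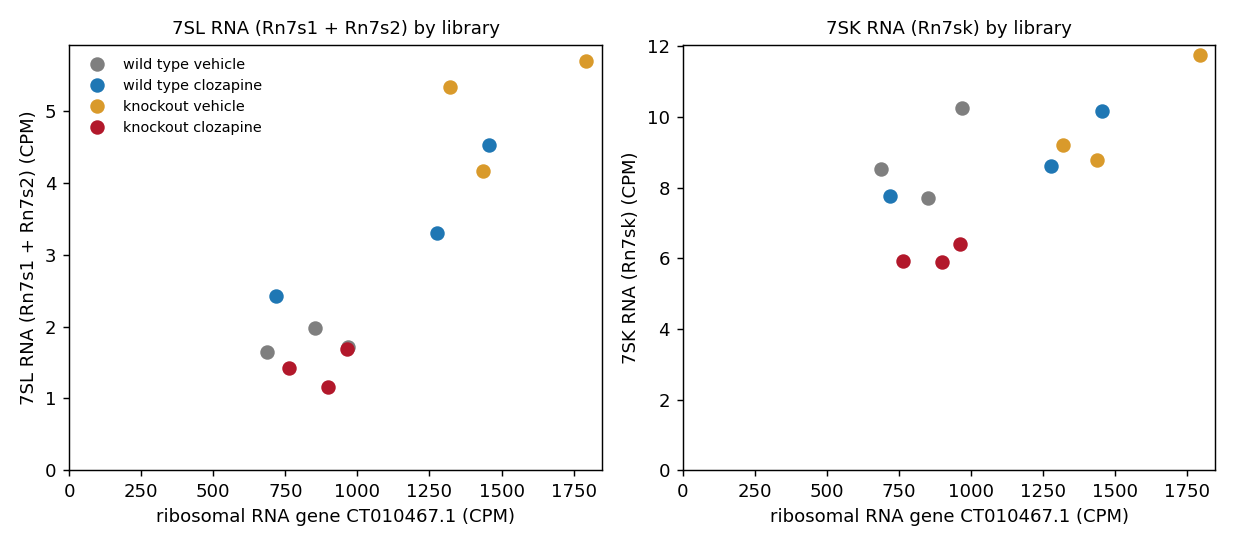
7SL (left) and Rn7sk (right) in CPM against the ribosomal RNA gene CT010467.1 in CPM; each point is a library, coloured by group. The 3 knockout vehicle libraries and wild-type clozapine 3 and 5 lie at 1276 CPM or more of CT010467.1 and at 3.30 CPM or more of 7SL.

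Set against that gene, the 7SL differences became smaller and kept their direction. Per 1000 counts of CT010467.1 there were 1.77, 2.41 and 2.33 counts of 7SL in wild-type vehicle, and 3.37, 3.11 and 2.59 in wild-type clozapine. There were 2.90, 4.04 and 3.18 in knockout vehicle, and 1.76, 1.87 and 1.29 in knockout clozapine. The log2 differences of these ratios were 0.48 and -1.04 with clozapine in wild type and labelled knockout, and 0.64 and -0.89 between genotypes under vehicle and clozapine. No wild-type vehicle library reached the ratios of either higher group.

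For Rn7sk the same ratio gave another picture. It was 10.6, 12.4 and 9.07 in wild-type vehicle and 10.8, 6.98 and 6.74 in wild-type clozapine. In the labelled knockout it was 6.11, 6.96 and 6.56 with vehicle, and 6.65, 7.75 and 6.55 with clozapine. The log2 difference with clozapine in the labelled knockout turned from -0.71 to 0.09, and that in wild type went from 0.00 to -0.39. Between genotypes it turned from 0.17 to -0.71 under vehicle and went from -0.55 to -0.23 under clozapine. The part that carry-over of RNA without a poly(A) tail has in any of these values was not tested.

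The protein partners of these RNAs showed small changes. Of 63 tested genes for SRP proteins, the 7SK particle, RNase MRP and RNase P, and the polymerase and its factors, 0 passed with clozapine in either genotype and 0 between genotypes under clozapine. Of all genes, 0.816% passed with clozapine in wild type, 0.0231% in the labelled knockout, and 2% between genotypes under clozapine. At such shares 0 of 63 is no result about the partner genes. Between genotypes under vehicle 1 partner gene rose and 4 fell, 7.94% of them, against 9.16% of all genes (4.01% upward and 5.15% downward). The median log2 changes of the partner genes were 0.00 and -0.01 with clozapine in wild type and labelled knockout, and 0.00 and -0.01 between genotypes under vehicle and clozapine, and that of all genes was 0.00 in each comparison. All log2 changes of the partner genes lay between -0.62 and 0.51.

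**Figure D4:**
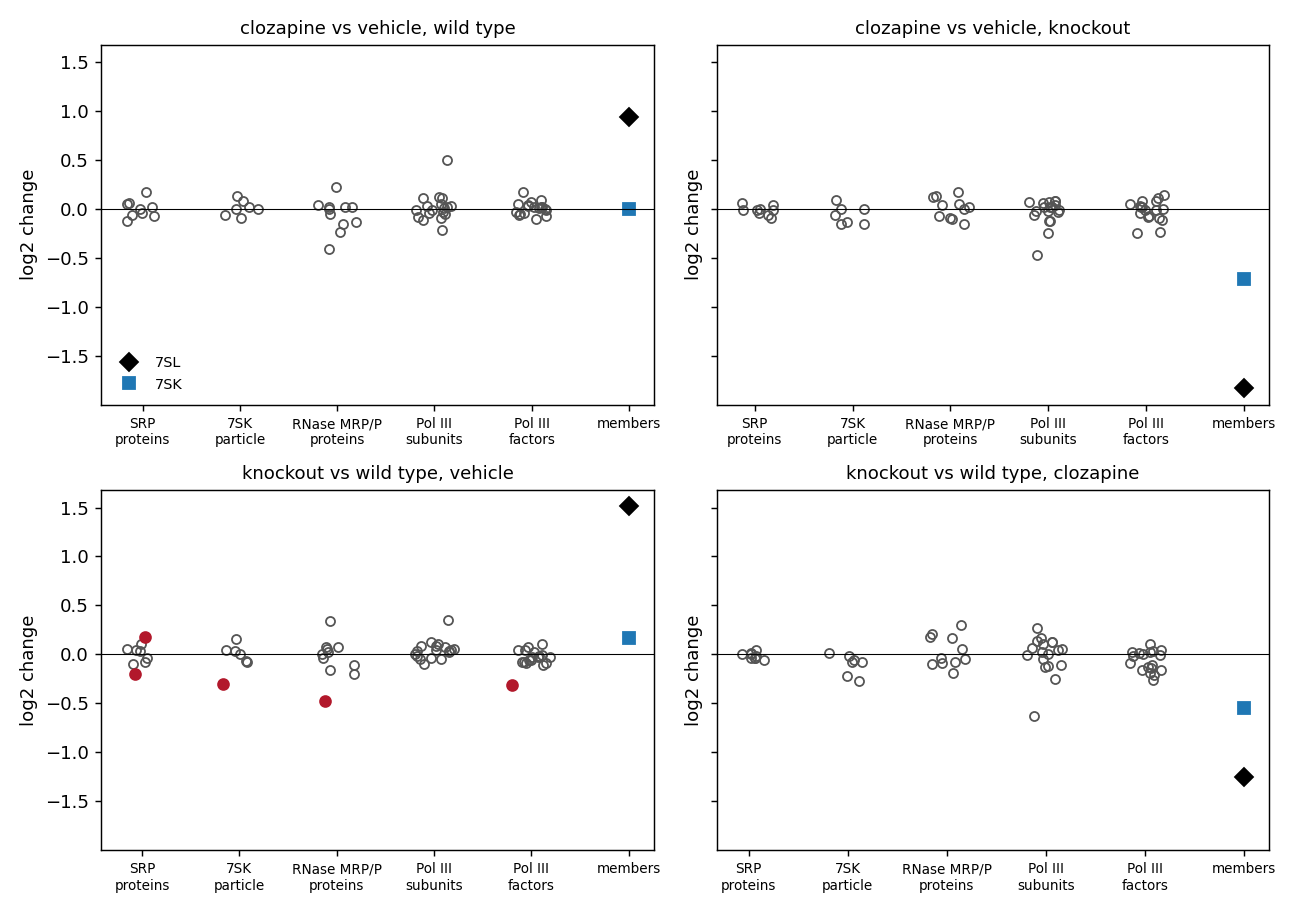
Log2 change of each tested partner gene, by list, with 7SL (black diamond) and Rn7sk (blue square) beside them, in the 4 comparisons; filled red circles passed the edgeR threshold of 0.05. The 5 partner genes that passed did so between genotypes under vehicle, where 9.16% of all genes passed, and the partner genes lie between -0.62 and 0.51.

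Among the 9 tested genes for SRP proteins and their receptor, Srp9, which binds the Alu domain of 7SL RNA with Srp14, rose between genotypes under vehicle from 59.8 ± 3.61 (SD, n = 3) to 67.5 ± 1.74 CPM (SD, n = 3; log2 change 0.18, edgeR adjusted p = 0.0474). Srpr, the receptor subunit that docks the particle at the endoplasmic reticulum, fell from 67.3 ± 3.98 to 58.5 ± 0.882 CPM (SD, n = 3; log2 change -0.20, edgeR adjusted p = 0.0230). The Srp9 call was lost without each library in turn except wild-type vehicle 1, with edgeR adjusted p up to 0.221, and in the fit of only the 2 groups (adjusted p = 0.107). The Srpr call was lost without wild-type vehicle 3 (edgeR adjusted p = 0.125) or knockout vehicle 2 (0.0586), 4 (0.0507) or 5 (0.0703), and in the fit of only the 2 groups (0.0636). Srp14 did not pass (0.11, edgeR adjusted p = 0.242).

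Of the 7 tested genes of the 7SK particle and P-TEFb, Ccnt2, a cyclin of P-TEFb, fell in the labelled knockout under vehicle, from 65.4 ± 6.96 to 53.0 ± 1.78 CPM (SD, n = 3; log2 change -0.30, edgeR adjusted p = 0.0242). It did not pass when knockout vehicle 2 (adjusted p = 0.0965), knockout vehicle 5 (0.0661), wild-type vehicle 1 (0.0713) or wild-type vehicle 3 (0.130) was left out. Under clozapine its change was -0.28 (edgeR adjusted p = 0.0873). Larp7, which binds and protects the end of 7SK RNA, had a change of -0.14 with clozapine in the labelled knockout (edgeR adjusted p = 0.491), and Hexim1, the inhibitor carried by the particle, -0.07 between genotypes under clozapine (edgeR adjusted p = 0.507).

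Of the 11 proteins of RNase MRP and RNase P, Pop1, their largest shared subunit, fell under vehicle from 8.02 ± 0.882 to 5.75 ± 0.814 CPM in the labelled knockout (SD, n = 3; log2 change -0.48, edgeR adjusted p = 0.0294). Leaving out knockout vehicle 2 (adjusted p = 0.133), wild-type vehicle 3 (0.122) or wild-type vehicle 4 (0.0846) ended that call, as did fitting only the 2 groups (0.0544).

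None of the 18 subunits of RNA polymerase III, some of them shared with polymerases I and II, passed in any comparison. Of all genes 9.16% passed between genotypes under vehicle and at most 2% elsewhere, so 0 of 18 is no result about the subunits. The subunit of smallest p was Polr2h, at 0.27 between genotypes under clozapine (edgeR adjusted p = 0.0873). Of 18 factors, Bdp1, a part of the initiation factor TFIIIB, fell in the labelled knockout under vehicle from 39.4 ± 1.41 to 31.6 ± 1.06 CPM (SD, n = 3; log2 change -0.31, edgeR adjusted p = 0.00519). Maf1, the repressor of the polymerase, had a change of 0.10 there (edgeR adjusted p = 0.215).

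The genes whose pattern over the 12 libraries was most like 7SL, by Pearson correlation of log2(CPM + 0.5) among 14975 genes of at least 1 CPM, were Glrx2, a mitochondrial glutaredoxin (0.90), Eny2, a subunit of the SAGA complex (0.90), Atp6ap2 (0.90), Ppa2 (0.88) and Pqlc3 (0.87). Mean levels of Glrx2 were 52.4 CPM with vehicle and 60.3 with clozapine in wild type, and 62.0 with vehicle and 53.0 with clozapine in the labelled knockout. Most like Rn7sk were Psma3, a proteasome subunit (0.88), Srsf1, a splicing factor (0.87), Ddx3y (0.87), its own copy Gm24447 (0.87) and Zik1 (0.86). Most like Rmrp were Il33 (0.84), Fermt3 (0.83), Ufl1 (0.82), Gdi2 (0.81) and Tpmt (0.81). The points share libraries, depth and groups, the highest of so many correlations is high in any data, and these are descriptions only.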

How the data were processed

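RNA sequencing of 12 frontal cortex libraries was analysed. The values deposited for each gene are estimated counts. Per the submitters' processing notes the authors aligned reads to GRCm38 with STAR 2.5.1b and counted them with featureCounts. How reads of several genes were shared, the strand setting and the annotation release are not given in the sources used here. Values were rounded and tested over all 12 libraries in 1 fit with edgeR 4.0.16 (TMM, filterByExpr, robust quasi-likelihood, Benjamini-Hochberg over 17286 genes, threshold 0.05). Alternatives used DESeq2 1.42.0, limma 3.58.1, other scalings and filters, a replicate block, the 2 groups alone and each library left out. The 7SL sum and the 7SK family sum replaced their rows in separate fits.

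GENCODE release M21 named 46488 of 47069 identifiers and gave the transcript sequences, which blastn 2.17.0 (e-value 1e-10) compared with all transcripts. The promoters of Rn7s1, Rn7s2, Rn7sk and Rmrp were not analysed here. Members and gene lists were chosen with earlier results of these data known. The text names the 4 members, partner genes past the threshold or of small p, and the 5 most similar genes. Larp7, Hexim1, Srp14 and Maf1 were named after their values were seen, for their roles. Some results under this rule are not reported here. The tests were checked on simulated counts. Totals of 23408372 to 28069638 counts per library gave few counts of 7SL, Rpph1 and Rmrp, so counting error is part of their spread between libraries.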

Additional observations from a re-analysis of the deposited data

Results flagged for a closer look

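Clozapine went with opposite directions of 7SL RNA in the genotypes. Every wild-type clozapine library was above every wild-type vehicle library, and every knockout clozapine library was below every knockout vehicle library. Of all genes tested, 7.34% separated upward in wild type and 8.97% downward in the labelled knockout. The share that did both was not counted. The log2 effect in wild type, subtracted from that in the labelled knockout, left -2.77 for the 7SL sum, -2.80 for Rn7s1 and -2.79 for Rn7s2, and since both genes were picked on the knockout libraries, this difference was not tested. Groups of 3 libraries are too small for a search for single outlying values.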

How the results depend on the processing

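For clozapine in wild type, the 7SL sum was 0.94 with DESeq2 and without the low-count filter (adjusted p = 0.0172 and 0.00305), and 0.69 to 1.13 with 1 library left out. Rn7s1 was 0.96 and Rn7s2 0.92 without the filter (adjusted p = 0.0305 and 0.0402), and they ranged over 0.70 to 1.15 and 0.68 to 1.12 with 1 library left out. At a threshold of 0.10 the 7SL sum (0.94) and Rn7s1 (0.96) pass. Of 22 alternatives for the 7SL sum, that threshold included, 5 passed and 17 were classed as unchanged. For Rn7s1 3 of 21 passed and for Rn7s2 1 of 21. Rn7sk in wild type ranged from -0.11 to 0.12 with 1 library left out and was -0.0012 without the filter.

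For Rn7sk between genotypes under clozapine, DESeq2 gave -0.55, no filter -0.54, the 2 groups alone -0.54, the 7SK family sum, added after seeing the data, -0.55, a threshold of 0.10 -0.55, and 1 library left out -0.63 to -0.43. The replicate block gave -0.59 (edgeR adjusted p = 0.0250). Of 23 alternatives for this Rn7sk value, 9 passed and 14 were classed as unchanged. Whether replicate numbers pair the libraries was not settled. Deviations of same-numbered libraries correlated at -0.10 to 0.21, with no libraries of unlike number set beside them, and the labels do not say what a number marks. With the replicate block 7SL under vehicle was 1.79, Rn7s1 1.80 and Rn7s2 1.76 between genotypes, and Rpph1 with clozapine was 0.27 in wild type and passed in the labelled knockout (-1.56, edgeR adjusted p = 0.0177). The block ended the calls under vehicle of Srp9 (edgeR adjusted p = 0.168), Srpr (0.0933), Ccnt2 (0.236), Pop1 (0.153) and Bdp1 (-0.24, 0.141), of which Bdp1 passed without each library in turn. Without the low-count filter (0.0747) or with RLE size factors (0.0505) the Srp9 call also ended. Rpph1 in wild type ranged from -0.28 to 0.31 with 1 library left out.

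Per count of CT010467.1, also added after seeing the data, 7SL was -1.04 with clozapine in the labelled knockout and 0.64 between genotypes under vehicle, and Rn7sk was 0.094, -0.71 and, with clozapine in wild type, -0.39, and went from -0.55 to -0.23 between genotypes under clozapine.

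Genes passing for clozapine in wild type numbered 288 by DESeq2, 304 without the filter, 18 with the replicate block, 92 in the 2 groups alone, 260 at 0.10 and 20 to 219 with 1 library left out, against 141. In the labelled knockout they numbered 274, 213, 174, 7 and 113 in the same order, 0 to 25 with 1 library left out, and 2 by limma-voom or RLE size factors, against 4. Between genotypes under vehicle they numbered 385 with the replicate block, 2480 at 0.10 and 617 to 1722 with 1 library left out, against 1584. Under clozapine they numbered 560 by DESeq2, 566 without the filter, 697 at 0.10 and 59 to 425 with 1 library left out, against 345. The cause of these shifts was not tested. Of 861 other recomputed values and list counts, 779 were classed as unchanged, 15 as stronger, 64 as weaker and 3 as reversed. Many are counts of list members passing, which have no direction and often stayed at 0, so 779 says little of single genes. The Srp9 call was unchanged in 6 settings and weaker in 15. Depth limits Rmrp, with 1 to 12 counts a library, and 7SL, with 28 to 164.66.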
